A study of Mus musculus with 11 samples.

Results

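Ribosomes are assembled in the nucleolus. RNA polymerase I transcribes a long precursor rRNA from the ribosomal DNA repeats, small nucleolar ribonucleoprotein particles (snoRNPs) guide the chemical modification of its bases and sugars, and large sets of assembly factors cut, fold and export the small and the large subunit. Dividing progenitors of the developing cortex have prominent nucleoli and a high demand for ribosomes, and mutations in several of these factors cause craniofacial and brain disorders. The genes described here are those of the deposited expression table whose symbol is a core subunit of RNA polymerase I (Polr1a to Polr1e), begins with Nop, Utp, Rrp or Nol and a digit, or is Fbl, Dkc1, Ncl, Npm1, Bop1, Pes1, Wdr12, Wdr43, Nat10, Ubtf, Taf1b, Rrn3, Rrs1, Nhp2, Gar1 or Tcof1. The rule used names and no measured value, and it found 55 of 24138 loci. All 55 were tested, since each had a mean of at least 1 FPKM (fragments scaled by transcript length and by library size) over the libraries, as did 12672 loci in all. Of these, 52 genes take part in rRNA transcription, modification or subunit assembly. Nol3, Nol4 and Nol4l matched by name only. Nol3 encodes an inhibitor of apoptosis, and Nol4 and Nol4l are not established assembly factors.

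RNA was measured by sequencing in the cortex of mouse embryos at E14.5, in 3 control libraries and 2 conditional knockout (cKO) libraries. The cKO libraries were labelled Chd8 c/c with Emx1-cre, where c is the conditional allele of Chd8, a chromatin remodeller and autism risk gene. Control 1 was labelled Chd8 c/+ and controls 2 and 3 Chd8 c/c, all without Cre, so loss of Chd8 and presence of Cre cannot be told apart. Emx1-cre acts in the dorsal telencephalic lineage, and interneurons, microglia and vessels in the same tissue keep Chd8. The labels do not say whether a library came from 1 embryo or a pool, so p-values measure the spread between these libraries. Chd8 was 31.5, 30.0 and 31.8 FPKM in controls 1 to 3 and 19.3 and 15.1 FPKM in cKO 1 and 2. A protocol label speaks of an Eed cKO, whereas titles and genotypes name Chd8.

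Most ribosome biogenesis genes had a slightly lower level in the cKO, and no single change passed the test over all loci. Log2 changes below are cKO minus control of log2(FPKM + 1), a scale that understates the change of low genes. The change was negative in 41 of the 55 genes (74.5%), against 53.1% of all tested loci, and its median was -0.13, against -0.02 over all tested loci. The change ranged from -0.71 (Nol3) to 0.49 (Nol4), and among the 52 established factors from -0.57 to 0.35. By limma's moderated test with Benjamini-Hochberg adjustment over all loci, 0 of 55 genes had an adjusted p under 0.05 (0.0473% of all tested loci did), the smallest adjusted p being 0.575, and 5 (9.09%) had an unadjusted p under 0.05, close to the 7.45% of all tested loci. In whole tissue, fewer cells of a type and less RNA per cell cannot be told apart.

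Both cKO libraries lay below every control in 13 genes (23.6%, against 15.6% of all tested loci) and above every control in 3 genes (5.45%, against 13.4%). The lower genes were Polr1a, Polr1c, Taf1b, Tcof1, Nat10, Rrp7a, Rrp12, Nop2, Nop16, Pes1, Rrp1b, Rrp8 and Nol3. The higher genes were Utp15, Utp18 and Nol4. The split depended on the scaling between libraries. With the library medians set equal, 9 genes lay lower and 8 higher (13.2% and 15.9% of all loci), and with quantile normalization again 9 and 8 (12.6% and 16.5%). Under equal medians Nop2, Nop16, Pes1 and Tcof1 left the lower set and Ncl, Nol11, Nol8, Rrn3 and Utp6 joined the higher set. Under quantile normalization Rrp12 also left the lower set, Rrp1 joined it, and Nop10 took the place of Rrn3 among those that joined the higher set. Without control 1 the counts were 34 lower and 7 higher (28.6% and 27.7% of all loci), and without cKO 1 they were 33 and 10 (34.5% and 27.3%). Without control 2 they were 13 and 7 (19.7% and 18.1% of all loci), and without cKO 2, 14 and 7 (22.0% and 21.5%). The authors' deposited table called 1 of the 55 genes, Rrp1, lower (3% of the loci that it tested) and none higher (1.21% of those loci).

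**Figure D1:**
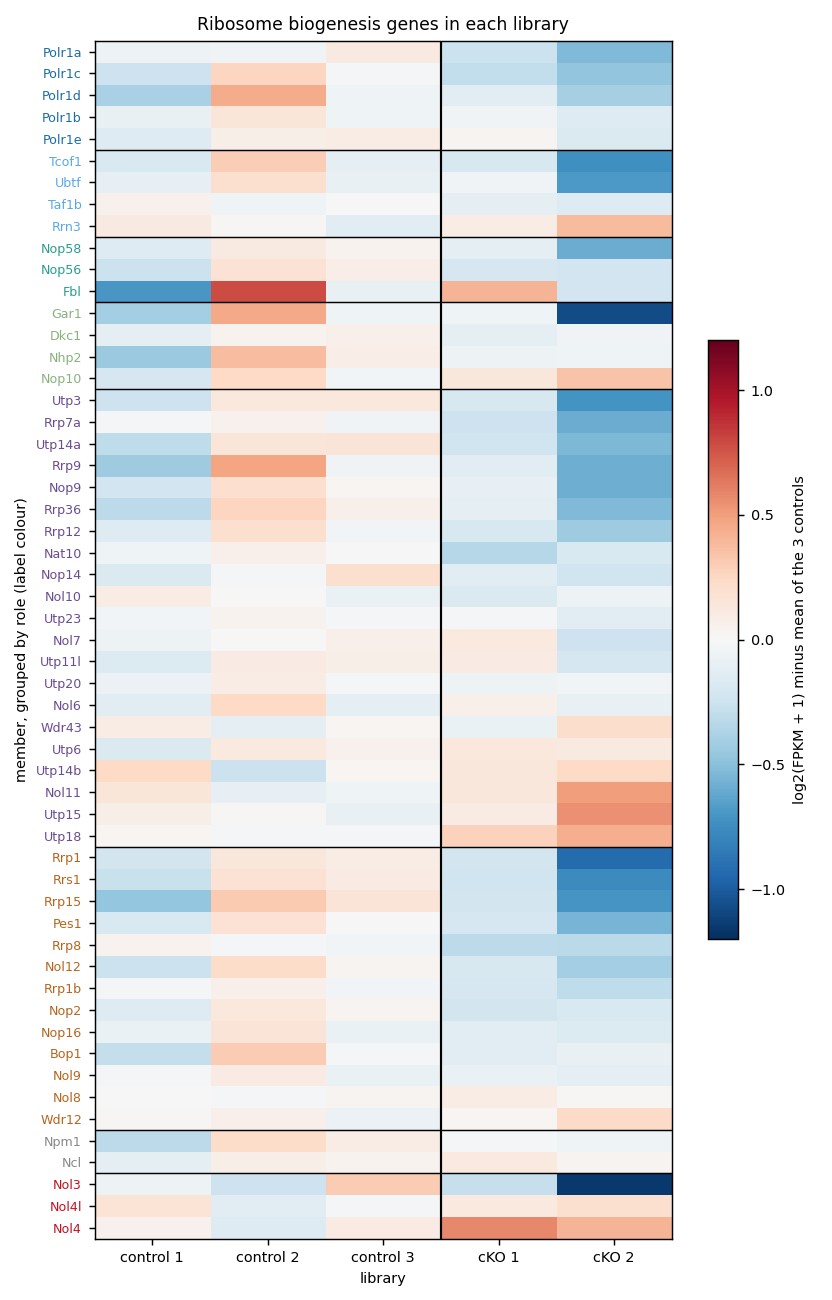
Level of each of the 55 genes in each library, as log2(FPKM + 1) minus the mean of the 3 controls. Rows are genes grouped by role, columns are libraries, and blue is below and red above the control mean. The column of cKO 2 holds most of the dark blue cells, with Utp15, Nol11 and Utp18 in red.

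The 2 cKO libraries did not contribute alike. cKO 2 lay below every control in 33 genes (60%, against 34.5% of all tested loci), and cKO 1 in 14 genes (25.5%, against 22.0%). cKO 2 was the lowest of the 5 libraries in 31 genes (56.4%, against 30.5% of all loci), and control 2 was the highest in 31 genes (56.4%, against 34.8%). The median level of the 55 genes was 17.3, 22.4 and 20.4 FPKM in controls 1 to 3 and 18.6 and 15.9 FPKM in cKO 1 and 2. The controls thus spanned a wider range than the distance from control 1, the lowest control, to either cKO library. cKO 1 lay inside the range of the controls, and cKO 2 lay below it. The summed level showed the same order, at 1360, 1730 and 1560 FPKM in the controls and 1470 and 1310 FPKM in the cKO.

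**Figure D2:**
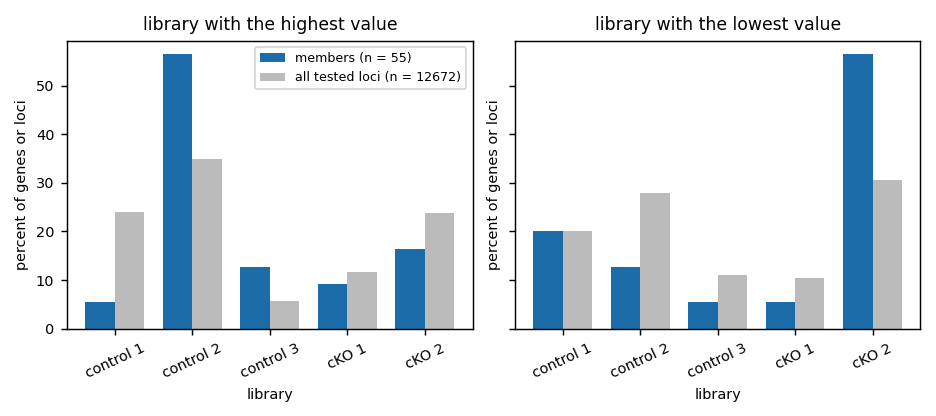
Percent of the 55 genes (blue) and of all 12672 tested loci (grey) in which each library held the highest value (left) or the lowest value (right). Control 2 is highest and cKO 2 is lowest in 56.4% of the 55 genes.

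The name rule took in 5 subunits of RNA polymerase I. All 5 had a negative log2 change (median -0.27), against 53.1% of all tested loci. Other subunits, such as Cd3eap, are among the remaining machinery below, where 3 of 11 tested genes had a positive change. Of the 5, 2 were lower without overlap between groups (40%, against 15.6% of all tested loci). Polr1a encodes the largest, catalytic subunit (chromosome 6, 71909053 to 71979435 in GRCm38) and stood at 9.28, 9.43 and 10.6 FPKM in controls 1 to 3 and 8.01 and 6.46 FPKM in cKO 1 and 2. Both cKO libraries were below all controls, and the cKO mean was 7.23 ± 1.10 FPKM (SD, n = 2) against 9.75 ± 0.695 (SD, n = 3), or 74.1% of control. The log2 change was -0.39 (SE 0.15), with a limma adjusted p of 0.575. An exact two-sided permutation test gave p = 0.1, the smallest value that 3 against 2 libraries allow. Polr1c, a subunit shared with RNA polymerase III and mutated in Treacher Collins syndrome (chromosome 17, 46243920 to 46248045), was 52.6, 75.3 and 62.0 FPKM in the controls and 50.9 and 44.7 FPKM in the cKO. Its nearest cKO and control values were 1.7 FPKM apart, less than the control SD of 11.4 FPKM. Polr1d, also shared with RNA polymerase III, was 50.9, 91.2 and 64.3 FPKM in the controls and 60.6 and 50.5 FPKM in the cKO, so cKO 1 lay among the controls. Polr1b, the other large catalytic subunit, and Polr1e, a subunit that takes part in initiation, had log2 changes of -0.10 (SE 0.14) and -0.07 (SE 0.16). Polr1a, Polr1b and Polr1e had control means of 9.75, 10.1 and 5.07 FPKM, while Polr1c and Polr1d had means of 63.3 and 68.8 FPKM.

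The factors that bring the polymerase to the ribosomal DNA promoter had changes on both sides of 0. Tcof1 encodes treacle, a nucleolar partner of UBF whose loss causes Treacher Collins syndrome through the death of neural crest and neuroepithelial cells. It was 19.4, 27.4 and 20.4 FPKM in the controls and 19.3 and 12.9 FPKM in the cKO, a log2 change of -0.46 (SE 0.23). cKO 1 was below control 1 by only 0.13 FPKM, so the separation of the groups rested on a small margin. Ubtf, the gene of UBF, which binds and opens active ribosomal DNA, was 47.9, 58.8 and 48.3 FPKM in the controls and 50.0 and 31.5 FPKM in the cKO. Here cKO 2 alone was low. Taf1b, a subunit of the promoter selectivity factor SL1, was 13.5, 12.5 and 13.0 FPKM against 12 and 11.6 FPKM, a small difference (log2 change -0.13, SE 0.12). Rrn3, which links the polymerase to SL1 and responds to growth signals, was 40.8, 38.3 and 34.6 FPKM in the controls and 40.3 and 49.5 FPKM in the cKO, with a log2 change of 0.23 (SE 0.15). It was the single positive value among the 4 initiation factors, whose median was -0.25.

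**Figure D3:**
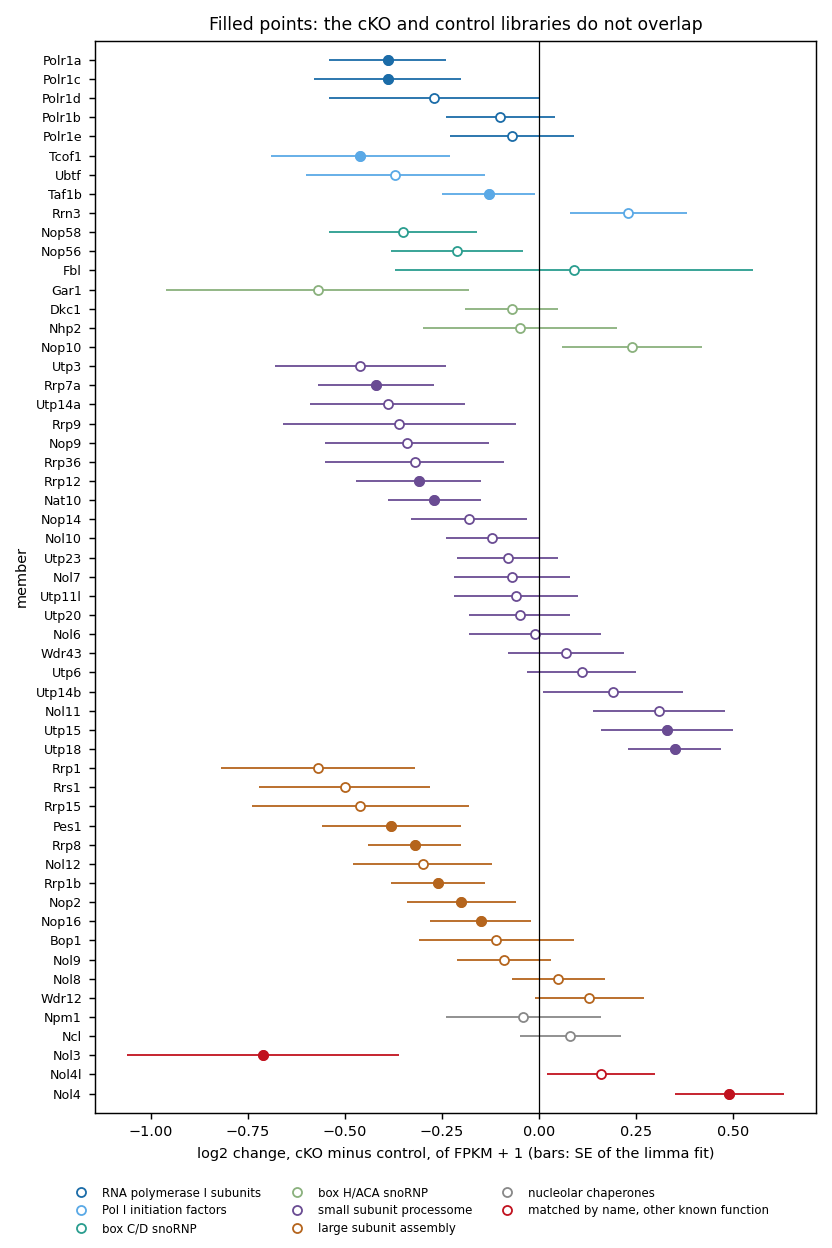
Log2 change (cKO minus control, of FPKM + 1) of each of the 55 genes, with bars for the SE of the limma fit and colours for the role. Filled points are the 16 genes whose cKO and control libraries do not overlap, 13 to the left of 0 and 3 to the right.

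Box C/D snoRNPs place methyl groups on rRNA sugars, and box H/ACA snoRNPs convert uridine to pseudouridine. In none of the 7 core proteins of these particles were the groups separate, and most tested loci (8999 of 12672) likewise overlapped. Nop58 was 40.2, 48.6 and 46.3 FPKM in the controls and 41.6 and 29.3 FPKM in the cKO, and its partner in the box C/D core, Nop56, was 39.7, 53.7 and 50.3 FPKM against 41.3 and 40.5 FPKM. Their log2 changes were -0.35 (SE 0.19) and -0.21 (SE 0.17). Fbl, the methyltransferase of the particle, varied widely among controls, at 4.49, 14.3 and 7.36 FPKM, with 10.8 and 6.56 FPKM in the cKO, and its control mean was 8.71 FPKM, against 47.9 FPKM for Nop56. In the box H/ACA core, the pseudouridine synthase gene Dkc1, mutated in dyskeratosis congenita, was 16.6, 18.5 and 18.7 FPKM against 16.6 and 17.4 FPKM. Gar1 was 19.6, 36.5 and 25.4 FPKM in the controls and 25.3 and 12 FPKM in the cKO, so cKO 2 was below every control and cKO 1 among them. Nop10 was 51.7, 70.4 and 58.2 FPKM against 65.5 and 75.8 FPKM, a log2 change of 0.24 (SE 0.18). Nhp2 was 38, 67.4 and 54.9 FPKM against 50.0 and 50.2 FPKM, and its change of -0.05 (SE 0.25) turned to 0.03 with quantile normalization. The 4 genes therefore did not share a direction.

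The small subunit processome is the large particle that forms on the nascent precursor rRNA and releases the small subunit rRNA. Of its 21 genes, 15 had a negative and 6 a positive log2 change (median -0.08), 3 were lower without overlap (14.3%, against 15.6% of all tested loci), 2 were higher (9.52%, against 13.4%) and 16 overlapped, shares near or below those of all loci. Rrp7a, a factor mutated in a primary microcephaly (chromosome 15, 83115846 to 83122801), was 22.7, 23.8 and 22.1 FPKM in the controls and 19.1 and 14.8 FPKM in the cKO, a log2 change of -0.42 (SE 0.15, unadjusted p = 0.0332 in limma, adjusted p = 0.575). The 3 controls were close together and both cKO libraries lay below them. Nat10, the enzyme that acetylates cytidines of the small subunit rRNA, was 13.7, 14.9 and 14.2 FPKM against 11 and 12.4 FPKM, with cKO 1 the lower of the cKO pair. Rrp12, a factor of precursor export, was 11, 14.3 and 12.1 FPKM against 10.7 and 8.98 FPKM. Utp3 (27.9, 36.5 and 36.7 FPKM against 29.1 and 19.9 FPKM), Utp14a, Rrp9, Nop9 and Rrp36 had log2 changes between -0.46 and -0.32, and in each of these 5 genes cKO 2 was below all controls while cKO 1 was above control 1.

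The 6 positive values included subunits that join the precursor early. Utp18 (chromosome 11, 93859243 to 93885766) was 15.5, 15.1 and 15.1 FPKM in the controls and 18.6 and 20.9 FPKM in the cKO, or 129% of the control mean, a log2 change of 0.35 (SE 0.12, unadjusted p = 0.0289 in limma, adjusted p = 0.575). The controls differed by less than 1 FPKM and both cKO libraries were above them. Utp15 was 11, 10.5 and 9.74 FPKM against 11.2 and 15.7 FPKM, so the value of cKO 1 was close to that of control 1. Nol11, a partner of Utp15 that is needed for rRNA transcription, was 21.8, 18.3 and 18.9 FPKM against 21.6 and 28.1 FPKM. Wdr43, of the same subcomplex, and Utp6, a partner of Utp18, had log2 changes of 0.07 (SE 0.15) and 0.11 (SE 0.14). The sixth positive value belonged to the joined locus of Acsl3 and Utp14b (0.19, SE 0.18), which cannot be assigned to Utp14b alone. Utp20, Utp23, Nol6, Nol7, Nol10, Utp11l and Nop14 had changes between -0.18 and -0.01. Nol6 changed sign with equal library medians (0.02), and Nol6 and Utp11l with quantile normalization (0.05 and 0.00).

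**Figure D4:**
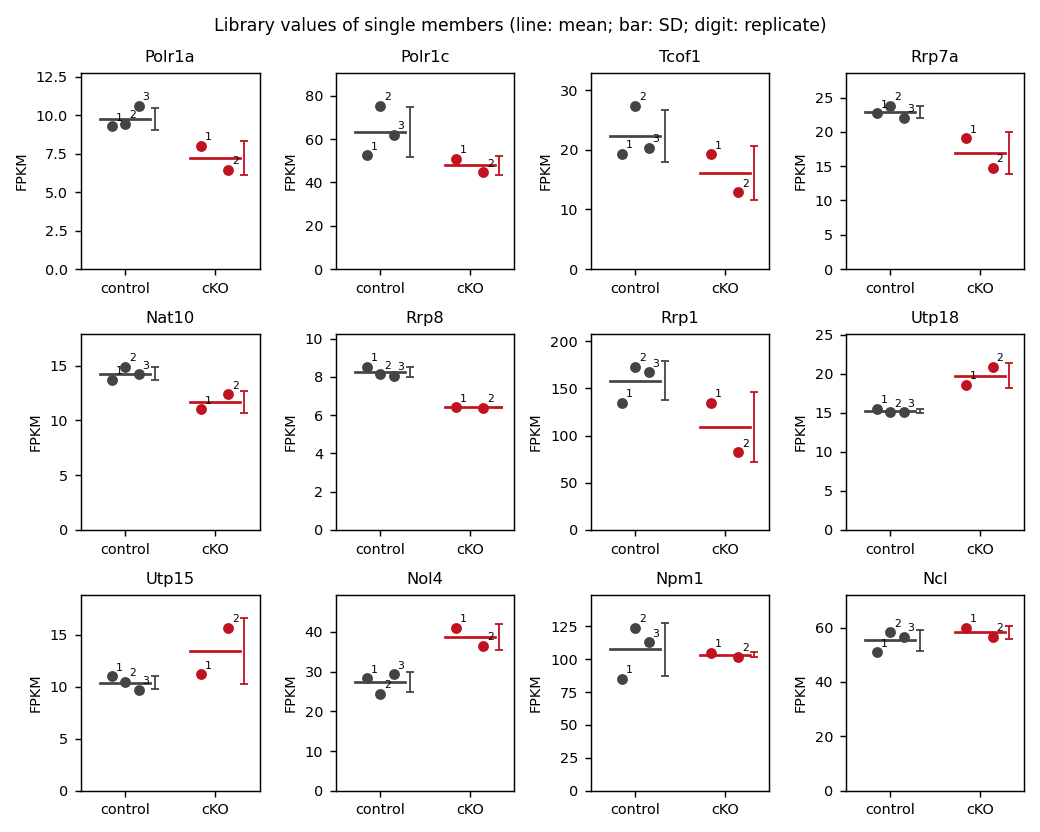
FPKM of 12 genes in each library (points, with the replicate number), with the mean (line) and SD (bar) of the 3 controls (grey) and the 2 cKO libraries (red). Polr1a, Rrp7a and Rrp8 are lower and Utp18 and Nol4 higher in both cKO libraries, Rrp1 is low in cKO 2, and the cKO libraries of Npm1 and Ncl lie near the controls.

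Among the 13 factors of large subunit assembly, 11 had a negative log2 change (median -0.26), 5 were lower without overlap (38.5%, against 15.6% of all tested loci) and 0 higher (against 13.4%). Of these 5, Rrp8 and Rrp1b were also lower with equal library medians and with quantile normalization, while Nop2, Nop16 and Pes1 overlapped in both. Rrp8, the methyltransferase that modifies an adenosine of the large subunit rRNA (chromosome 7, 105731730 to 105737385), was 8.53, 8.15 and 8.05 FPKM in the controls and 6.42 and 6.38 FPKM in the cKO. The libraries of each group were close together, and the cKO mean was 77.7% of control (log2 change -0.32, SE 0.12, unadjusted p = 0.0416 in limma, adjusted p = 0.575). Rrp1b was 8.45, 8.98 and 8.36 FPKM against 7.32 and 6.76 FPKM, and its paralog Rrp1 was 135, 173 and 167 FPKM against 135 and 82.6 FPKM. Rrp1 (chromosome 10, 78400362 to 78413043) was the most abundant of the 55 genes, and its cKO 1 value lay marginally above that of control 1 (both 135 FPKM after rounding) while cKO 2 was far below. In the authors' deposited table its log2 fold change was -0.54 with a q-value of 0.0316, and in limma its change was -0.57 (SE 0.25, adjusted p = 0.575). Reads of the paralogs could be shared between Rrp1 and Rrp1b, and how the counting treated them is not given in the sources used here.

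Pes1, Bop1 and Wdr12 form the PeBoW complex, which is needed to cut the large subunit precursor. Pes1 was 17, 22.1 and 19.5 FPKM in the controls and 16.8 and 12.9 FPKM in the cKO, a log2 change of -0.38 (SE 0.18), with cKO 1 below control 1 by 0.13 FPKM. Bop1 was 34.6, 52.4 and 41.6 FPKM against 38.3 and 39.8 FPKM, within the controls. Wdr12 was 5.92, 6.15 and 5.54 FPKM against 6 and 7.04 FPKM. The 3 partners thus had changes of -0.38, -0.11 and 0.13. Nop2, a methyltransferase of the large subunit rRNA, was 21.8, 26.7 and 24.9 FPKM against 20.8 and 21.4 FPKM, and Nop16 was 16.9, 20.0 and 16.9 FPKM against 16.2 and 15.9 FPKM. Rrs1, which helps to bring the 5S ribonucleoprotein into the precursor, was 16.2, 22.4 and 21.2 FPKM against 16.6 and 11.2 FPKM, and Rrp15 was 12.7, 22.5 and 20.0 FPKM against 15.2 and 10.6 FPKM. In both, cKO 2 was the lowest library and cKO 1 was above control 1. Nol12, Nol9 and Nol8 had changes of -0.30, -0.09 and 0.05.

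The abundant nucleolar chaperones overlapped between groups, although both cKO libraries of Ncl lay above the controls with equal medians or quantile normalization. Npm1, nucleophosmin, was 85.1, 124 and 113 FPKM in the controls and 105 and 102 FPKM in the cKO, and Ncl, nucleolin, was 51.0, 58.2 and 56.7 FPKM against 60 and 56.6 FPKM. The log2 changes were -0.04 (SE 0.20) and 0.08 (SE 0.13), and that of Npm1 was 0.07 with quantile normalization. Npm1 has processed pseudogenes that can share its reads. Of the 3 genes matched by name alone, Nol4 was 28.4, 24.4 and 29.3 FPKM in the controls and 41.1 and 36.5 FPKM in the cKO, with a log2 change of 0.49 (SE 0.14, unadjusted p = 0.0154 in limma, adjusted p = 0.575). Both cKO libraries were above all controls by at least 7.2 FPKM. Nol3 was 1.68, 1.35 and 2.46 FPKM against 1.31 and 0.253 FPKM, a level at which single libraries vary widely. Nol4l had a change of 0.16 (SE 0.14). Without these 3 genes the median of the other 52 was -0.14.

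A pair of sequence features that the choice of genes did not use were compared. A promoter window, 250 bases before to 50 after the annotated start, was matched for 43 of the 55 genes in RefSeq (GRCm38.p6). The motif CACGTG, the canonical E-box bound by the growth regulator Myc and other factors, reads the same on both strands and was present in 9 of the 43 (20.9%), against 8.09% of all 27025 genes with a window and 11.8% of the genes at tested loci. The 9 genes were Rrn3, Nop2, Pes1, Nol11, Rrp7a, Utp14b, Utp18, Utp20 and Wdr43. Their median log2 change was 0.07, against -0.23 for the 34 genes without the motif. Of the 9, 3 were lower and 1 higher without overlap, and of the 34, 7 were lower and 1 higher. Over all tested loci the shares were 15.6% lower and 13.4% higher. A match is a description of the letters and says nothing of binding. The windows of the 4 genes with the smallest unadjusted p among the 9 are printed, and the changes of these 4 lie on both sides of 0. The motif is in capitals, at 14 bases before the start in Utp18, 202 in Rrp7a and 37 in Nol11. In Pes1 it began at base 253 of the window, past the start, and only 30 bases are shown.
Utp18, chr11:93885767-93886016, minus strand: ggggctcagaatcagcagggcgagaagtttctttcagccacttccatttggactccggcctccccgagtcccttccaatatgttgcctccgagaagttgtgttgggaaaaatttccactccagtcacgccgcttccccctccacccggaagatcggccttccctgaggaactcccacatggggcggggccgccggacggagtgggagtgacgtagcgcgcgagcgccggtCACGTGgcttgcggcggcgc
Rrp7a, chr15:83122802-83123051, minus strand: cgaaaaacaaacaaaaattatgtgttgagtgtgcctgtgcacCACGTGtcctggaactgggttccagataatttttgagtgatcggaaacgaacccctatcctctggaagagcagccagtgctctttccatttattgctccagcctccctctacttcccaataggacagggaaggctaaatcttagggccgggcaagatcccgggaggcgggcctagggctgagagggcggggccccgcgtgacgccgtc
Nol11, chr11:107189382-107189631, minus strand: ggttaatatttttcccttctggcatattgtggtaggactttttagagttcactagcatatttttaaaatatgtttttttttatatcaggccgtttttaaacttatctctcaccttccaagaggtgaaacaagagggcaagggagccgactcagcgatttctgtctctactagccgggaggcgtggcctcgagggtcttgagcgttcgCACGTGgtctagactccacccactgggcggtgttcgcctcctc
Pes1, chr11:3963965-3963994, plus strand: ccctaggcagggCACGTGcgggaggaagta

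Several ribosome biogenesis genes carry snoRNA genes in their introns, so that a single transcript gives a protein and a guide RNA. By RefSeq, 5 of the 55 genes (9.09%) held at least 1 annotated snoRNA gene inside their bounds, against 2.44% of 11765 protein-coding genes at tested loci, with strand not compared. They were Nop56, Nop58, Dkc1, Ncl and Wdr43. Their median log2 change was -0.07, against -0.14 for the other 50. In none of the 5 were the groups separate, and 8999 of 12672 tested loci likewise overlapped.

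Other genes of the same pathway were read from lists written for this purpose. Of 11 tested genes of the remaining RNA polymerase I machinery, 4 were lower (36.4%, against 15.6% of all tested loci) and 1 higher (9.09%, against 13.4%) without overlap (median log2 change -0.32). The 4 with the smallest p were Taf1d and Taf1a, of the SL1 complex, Cd3eap, a polymerase subunit that partners Polr1e, and Ttf1, the termination factor. Taf1d was 17.2, 17.7 and 20.9 FPKM in the controls and 12.5 and 11.7 FPKM in the cKO (log2 change -0.57, SE 0.14, unadjusted p = 0.00754 in limma, adjusted p = 0.575). Cd3eap was 10.5, 14.1 and 15.2 FPKM against 10.2 and 6.52 FPKM, Taf1a 6.52, 6.20 and 6.86 FPKM against 5.32 and 4.36 FPKM, and Ttf1 4.50, 4.98 and 4.82 FPKM against 4.07 and 2.81 FPKM. In these 4 genes, picked by smallest p, both cKO libraries lay below all controls, while 6 of the 11 overlapped. The 3 genes of the 11 with a positive change were Twistnb (0.23, SE 0.17), Znrd1 (0.18, SE 0.25) and Polr2l (0.16, SE 0.16). Of these, Polr2l was the 1 higher without overlap, at 4.38, 4.57 and 3.58 FPKM against 4.66 and 4.89 FPKM. RNA polymerase III and its factors, which make 5S rRNA and tRNA, had 4 of 19 genes lower (21.1%) and 1 higher (5.26%), with a median of -0.13. Among them Gtf3c5 was 20.9, 26.0 and 24.2 FPKM against 16.5 and 10.7 FPKM and was called lower in the authors' deposited table (q-value 0.00331).

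Further small subunit factors had 2 of 27 genes lower and 2 higher without overlap (7.41% each, median -0.04). The gene with the smallest p was Dcaf13, at 25.7, 28.8 and 28.5 FPKM against 34.9 and 35.3 FPKM in the cKO. Further large subunit factors had 5 of 30 lower (16.7%) and 4 higher (13.3%), the shares of all tested loci being 15.6% and 13.4% (median -0.11). Of the 30, 21 overlapped, and those named here were picked by smallest p. Pelp1 was lower in both cKO libraries, at 23.8, 31.8 and 24.7 FPKM against 22.4 and 12.6 FPKM (q-value 0.0308 in the authors' deposited table). Las1l was also lower in both, at 24.0, 23.0 and 25.7 FPKM against 21.4 and 11.6 FPKM. Nip7 was higher, at 10.6, 10.9 and 9.87 FPKM against 12 and 15.2 FPKM. The RNA exosome, which trims rRNA precursors, had 2 of 13 lower (15.4%) and 1 higher (7.69%), with a median of -0.00, and Myc with its partners 1 of 10 lower and 2 higher (median -0.11). No gene of these lists passed limma over all loci.

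Free ribosomal proteins L5 and L11 with 5S rRNA bind Mdm2 and thereby raise p53 when ribosome assembly is disturbed. Of 6 tested genes of this checkpoint, 2 were higher (33.3%, against 13.4% of all tested loci) and 1 lower (16.7%, against 15.6%) without overlap. The median log2 change was 0.26. The other 3 genes overlapped, among them those of L5 (log2 change 0.21, SE 0.30) and L11 (0.75, SE 1.14). The gene of L5 was 5.72, 7.12 and 7.16 FPKM against 5.37 and 11.2 FPKM. That of L11 was 0.514, 21.9 and 8.94 FPKM against 15.5 and 7.39 FPKM, so its change leans on the very low control 1. Cdkn1a, the p53 target that encodes p21, was 10.5, 5.54 and 6.55 FPKM in the controls and 21.0 and 18.9 FPKM in the cKO, and the authors' deposited table called it higher (q-value 0.00331, adjusted p = 0.575 in limma). Mdm2 was 24.1, 23.1 and 25.8 FPKM against 28.9 and 32.5 FPKM. Trp53, the gene of p53 itself, was 46.2, 84.1 and 57.9 FPKM against 45.3 and 46.0 FPKM, so that the cKO libraries were just below control 1. Whether these levels relate to ribosome assembly was not tested.

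Summed levels of cell type markers separated the groups for intermediate progenitor, ventral and microglial genes. The vascular sum was also separate, but only 1 of its 8 genes was. The sums overlapped or lay on both sides of the controls for radial glia, proliferation and neuronal genes. Over all tested loci, 15.6% were lower and 13.4% higher without overlap, 53.1% had a negative change and 46.9% a positive change. Intermediate progenitor genes (6 of 6 with a negative change, 4 lower without overlap) summed to 273, 607 and 383 FPKM in the controls and 257 and 195 FPKM in the cKO, with the same highest and lowest library as the ribosome biogenesis genes. Radial glia genes (4 of 10 lower, 1 higher) summed to 1390, 1930 and 1600 FPKM against 1440 and 1520 FPKM. Most of this sum came from Vim (451, 816 and 624 FPKM against 408 and 444 FPKM) and Fabp7 (604, 673 and 616 FPKM against 714 and 782 FPKM). Among the less abundant genes, Nes and Emx2 were at 55.0% and 51.7% of the control mean. Proliferation genes (9 of 10 with a positive change, 1 higher without overlap) summed to 272, 436 and 389 FPKM against 368 and 476 FPKM, so cKO 2, lowest for ribosome biogenesis, was highest here. Neuronal genes (4 of 10 higher) summed to between 2530 and 2620 FPKM in the controls and 2950 and 2350 FPKM in the cKO. Tubb3 alone gave 1340, 1320 and 1370 FPKM of this sum in the controls and 1410 and 1100 FPKM in the cKO. Ventral telencephalic genes (7 of 10 higher) summed to between 261 and 391 FPKM in the controls and 508 and 541 FPKM in the cKO. Microglial genes (11 of 12 higher) summed to between 34.8 and 52.2 FPKM in the controls and 111 and 105 FPKM in the cKO. Vascular genes summed to 80.7, 85.5 and 72.7 FPKM against 87.4 and 97.3 FPKM. Of these 8 genes only Rgs5 was higher without overlap (15.9, 11.4 and 13.1 FPKM against 19.4 and 27.4 FPKM), and the other 7 overlapped. Erythroid genes had 0 of 5 higher without overlap, and no tested marker was at 0 in any library. The part of cell composition in the levels of ribosome biogenesis genes was not tested.

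**Figure D5:**
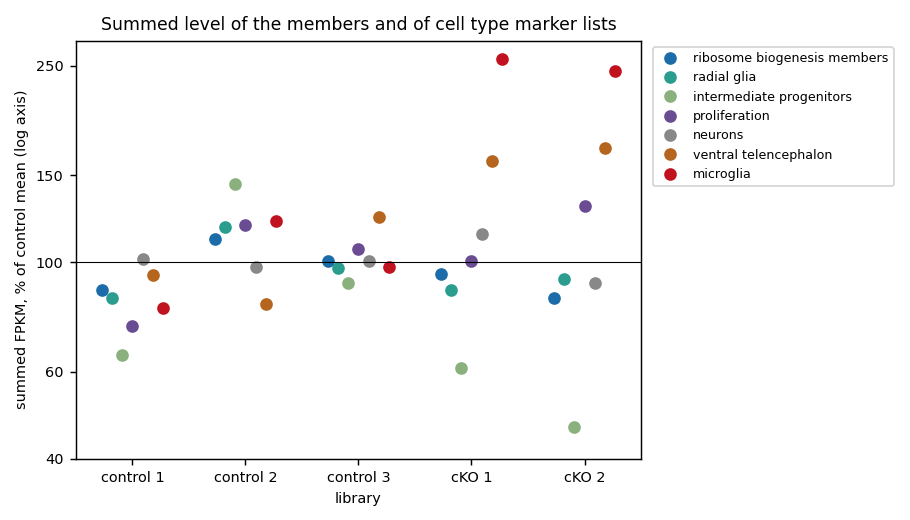
Summed FPKM of the 55 genes and of 6 marker lists in each library, as percent of the mean of the 3 controls on a log axis. Ribosome biogenesis genes and intermediate progenitor genes are highest in control 2 and lowest in cKO 2, while microglial and ventral genes are high in both cKO libraries.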

How the data were processed

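Deposited values were analysed for 5 RNA libraries, and the 6 ATAC-seq samples were not used here. FPKM per locus and library and the authors' group means were taken from the deposited table, as were, per the file headers, the authors' own log2 fold change, p-value, q-value and test statistic (a score). The submitters' processing notes name TopHat, Cufflinks and the build mm10 without versions or roles, and no source used here gives the annotation or strand setting. No whole reads were recovered from low FPKM values, so depth is unknown. FPKM summed to 418191 to 484296 per library.

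Loci were kept where the 5 libraries averaged 1 FPKM or more, and log2(FPKM + 1) was tested across all loci with limma 3.58.1 (R 4.3.3, trended empirical Bayes, Benjamini-Hochberg adjustment, threshold 0.05, 3 residual degrees of freedom), which was tested on simulated data. A gene was counted as lower or higher without overlap when both cKO values lay below or above all controls. Named genes were all members of the rule, up to 4 genes of each other list by smallest unadjusted p, and summed markers. Also named were the genes of L5 and L11, of UtpA and UtpB, and those of the remaining RNA polymerase I machinery with a positive change. The members, lists and tests were chosen with earlier results of these data known, so no test of a list was made. Alternatives were other pseudocounts, filters and scalings, a replicate block, and leaving out each library.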

Additional observations from a re-analysis of the deposited data

How the results depend on the processing

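Of 603 recomputed log2 changes of single genes, 585 kept their direction and stayed at an adjusted p above 0.05 in limma, 18 in 9 genes changed sign, and the smallest adjusted p was 0.324. Number of loci called over all 12672 was 6, with a range of 8 to 35 when each library was left out and 3 with the replicate block. In that paired fit the median of the 55 genes was -0.14. No ribosome biogenesis gene was called in the main fit, so the block had no call to remove. The overlap counts do not use the block. With it, 0 of the 55 genes had an unadjusted p under 0.05 in limma, against 5 in the main fit. Their smallest adjusted p was 0.970, against 0.575. Replicates 1 and 2 share only a number, and control 3 has no partner. Over all tested loci, the difference between control 1 and control 2 had a correlation of -0.09 with that between cKO 1 and cKO 2. Genes lower without overlap ranged from 13 to 34 on leaving out a library, and genes higher from 4 to 10, where fewer libraries by themselves make separation more frequent. Equal medians and quantile normalization each gave 8 higher. The median change of the 55 genes ranged from -0.26 to -0.07 over the libraries left out and stayed negative in every alternative run. It was -0.14 with single-gene loci only. Signs changed for Nhp2 (0.03 with quantile normalization, -0.27 to 0.13 on leaving out a library), Npm1 (0.07 with quantile normalization, 0.01 with the block, range -0.19 to 0.07), Nol6 (0.02 with equal medians, 0.05 with quantile normalization, range -0.09 to 0.11) and Utp11l (0.00 with quantile normalization, range -0.21 to 0.09). On leaving out a library they also changed for Nol7 (-0.25 to 0.12), Bop1 (-0.25 to 0.04), Wdr43 (-0.07 to 0.21), Polr1e (-0.17 to 0.03) and Fbl (-0.26 to 0.48). The cause was not tested. Depth is unknown, so no limit of detection can be given.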

Other observations

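The positive values among the processome genes were looked at by subcomplex after they had been seen. UtpA holds Utp15, Nol11 and Wdr43, and also Heatr1, Cirh1a and Wdr75, which are on the list of further small subunit factors. UtpB holds Utp6 and Utp18, and also Pwp2, Tbl3, Wdr3 and Wdr36. All 6 UtpA genes had a positive log2 change (median 0.21), against 46.9% of all tested loci, with 1 higher without overlap (13.4% of all loci). In 5 of the 6, cKO 1 lay within the range of the controls, and Wdr43 turned to -0.07 without cKO 2. Cirh1a was 17, 20.8 and 17.4 FPKM in the controls and 19.2 and 24.2 FPKM in the cKO, and Wdr75 was 19.0, 16.9 and 18.1 FPKM against 18.2 and 23.5 FPKM. Heatr1 hardly differed (0.02, SE 0.13). UtpB was mixed, with 3 positive and 3 negative values (median 0.04), and Pwp2 was lower in both cKO libraries at 11.4 and 9.39 FPKM against 11.6, 13.3 and 12.3 FPKM. No gene of either subcomplex passed limma over all loci, and a difference between UtpA and other factors was not tested.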
